A study of Mus musculus with 8 samples.

Results

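The expression of 10 prostaglandin genes, Ptgs1, Ptgs2, Ptges, Ptges2, Ptges3, Ptgds, Hpgd, Ptger1, Ptger3 and Ptger4, was examined in aged mouse retina labelled Mrp4-null or wild-type. They were chosen as genes for the synthesis, breakdown and sensing of prostaglandins, which multidrug resistance protein 4 (MRP4) exports from cells, and a probe was assigned to a gene by its accession on the array. The 10 genes were among 22911 named genes on the array and were represented by 14 probes. Prostaglandins are lipid messengers made from arachidonic acid. Cyclooxygenases turn the released acid into prostaglandin H2, terminal synthases turn this into prostaglandin E2, D2 and other prostanoids, and 15-hydroxyprostaglandin dehydrogenase inactivates them after uptake. Prostaglandin E2 acts through the EP receptors, and in the retina prostanoids are known for their part in vessel growth, inflammation and the response to injury.

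None of the 8 genes that could be tested was called changed between the genotypes. Ptger1, the gene for the EP1 receptor, averaged 1.74-fold higher under the Mrp4-null label, but it was well above background on only 1 of 4 wild-type (WT) arrays. Ptgds, the gene for lipocalin-type prostaglandin D synthase, averaged higher under the Mrp4-null label, and its lowest values came from 2 WT arrays that also lacked a signal for Xist. Ptgs2, the inducible cyclooxygenase, and Ptger3, the EP3 receptor, had no probe that passed the filter on signal over background.

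Whole retinas came from aged mice of 46 to 55 weeks by the labels (45 to 55 weeks in the methods), either homozygous Mrp4 knockout mice, called Mrp4-null here, or WT mice. The methods give a C57BL/6J background for the knockout line, and the labels name no treatment. Total RNA was labelled with Cy3 and hybridized to 8 one-color Agilent arrays, 4 per genotype, each array holding 1 sample. The methods name tissue of 3 mice without saying whether a sample was a pool of them, so p-values measure the spread between these samples. The 8 arrays shared 1 slide, on which a row held a single genotype, and row and genotype cannot be told apart. An array had between 37342 and 39581 probes well above background and no saturated spot, and precision is limited by having 4 arrays per genotype. All 13 retina markers were well above background on all 8 arrays.

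The labels were first checked on Abcc4, the gene for MRP4. Its normalized log2 signal was 10.84, 10.71, 10.64 and 10.80 under the Mrp4-null label and 6.62, 7.13, 6.54 and 7.02 on the WT arrays. The probe was thus higher under the knockout label on every array, and the fitted log2 fold change was 3.92 (standard error 0.14, limma adjusted p = 1.36e-05). Where this probe lies relative to the deleted stretch is not given in the sources used here, so a probe outside that stretch and an exchange of the genotype labels cannot be told apart. Every direction below follows the labels, and an exchange would turn all of them. Xist, a transcript of the inactive X chromosome, gave a signal well above background on all 4 Mrp4-null arrays, on WT 1 and on WT 2, and Y-linked probes were so on WT 2, WT 3 and WT 4. WT 2 held both kinds of transcript. The genotypes were therefore not matched for sex-linked RNA, and for the 10 prostaglandin genes differences are also given without WT 3 and WT 4 where this moved them by more than 1.5 times.

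The stretches before the start sites of 2 genes are shown because the results turn on them: Ptges held the one probe whose arrays did not overlap between the genotypes after normalization, and Ptgds the lowest values where Xist was not detected. The sequences were taken from a RefSeq promoter table of build GRCm38.p6, in which 9 of the 10 genes were matched. Each covers 250 bases before the annotated start, 5' to 3' on the minus strand of chromosome 2, at chr2:30903298-30903547 for Ptges and chr2:25469750-25469999 for Ptgds. Capitals mark the GC box GGGCGG.
Ptges: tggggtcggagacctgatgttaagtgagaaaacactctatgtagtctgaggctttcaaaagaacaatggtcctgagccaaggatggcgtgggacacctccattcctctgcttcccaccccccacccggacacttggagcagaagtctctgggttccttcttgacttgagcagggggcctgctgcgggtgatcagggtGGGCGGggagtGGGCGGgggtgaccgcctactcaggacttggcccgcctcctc
Ptgds: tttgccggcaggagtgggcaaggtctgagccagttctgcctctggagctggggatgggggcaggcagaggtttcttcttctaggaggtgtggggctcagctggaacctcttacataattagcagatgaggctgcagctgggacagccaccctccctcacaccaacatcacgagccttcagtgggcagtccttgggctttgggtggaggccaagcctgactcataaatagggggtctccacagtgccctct
The GC box occurred at 2 places in the Ptges stretch, 53 and 42 bases before the start. It was searched on both strands, together with the TATA box (TATAAA), the cyclic AMP response element (TGACGTCA), the E-box (CACGTG) and the EGR site (GCGGGGGCG), in windows reaching from 250 bases before to 50 bases after a start. Of all 32851 such windows, 35.7% held the GC box, 13.6% the TATA box, 7.15% the E-box, 2.91% the EGR site and 1.79% the cyclic AMP response element. The Ptgds window held none of these letters. These matches describe the sequence and were not tied to the expression values.

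Of the 14 probes, 9 passed the filter, which required a signal well above background on each array of either genotype that measured the probe. They stood for 8 genes, and all but 1 of the 9 exceeded background clearly on each of the 8 arrays. The exception was the Ptger1 probe, which passed only through the arrays labelled Mrp4-null. In limma, a probe counted as called changed if the genotypes differed at least 1.5-fold with a Benjamini-Hochberg adjusted p under 0.05. By this rule 0 of the 9 probes were called, against 0.545% of all 37085 tested probes. Before adjustment, 1 of the 8 probes other than that of Ptger1, a Ptges probe, had p under 0.05 in limma, where 6.46% of all tested probes did. The local pooled error (LPE) test named in the methods called 0 of the 9 after adjustment. With a difference of at least 1.5-fold and an unadjusted p under 0.05, the LPE test passed 0 of the 8 probes other than that of Ptger1, against 1.65% of all tested probes. Taking the brightest probe of each gene, the median log2 fold change was -0.07 over the 8 genes and -0.01 over all tested probes, and the median size of the difference was 0.10 and 0.08. On average 2 probes were higher and 7 lower under the Mrp4-null label. For 5 probes, those of Ptgs1, Ptges (both), Ptges2 and Ptges3, the 95% interval of the difference lay within 1.5-fold in either direction.

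**Figure D1:**
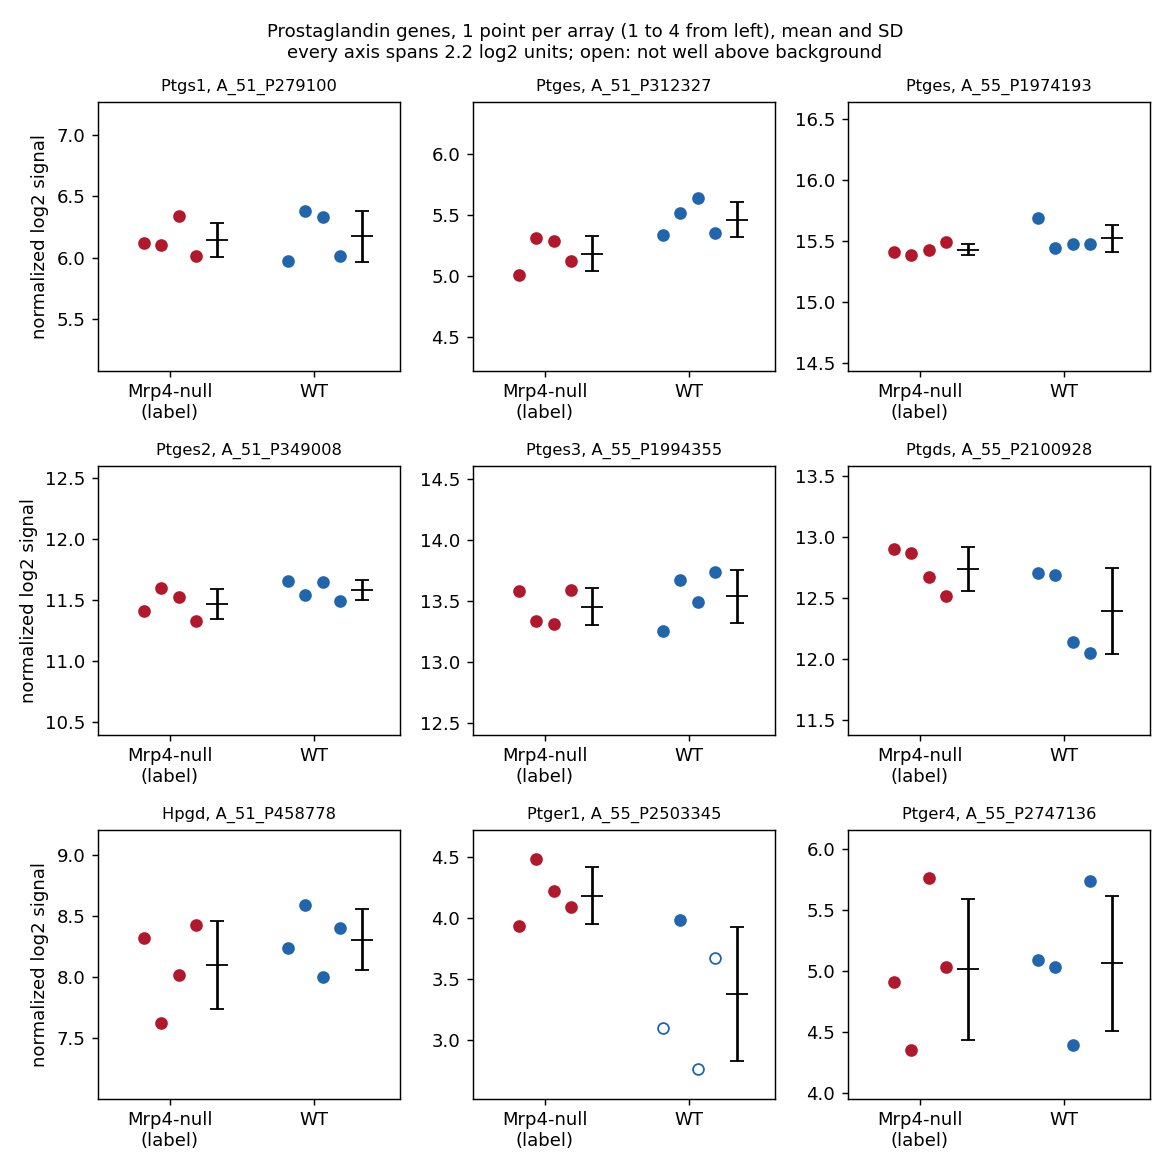
Normalized log2 signal of the 9 tested probes, 1 panel per probe, with 1 point per array (red, labelled Mrp4-null; blue, WT) and the mean and SD of each group beside it; all panels span the same number of log2 units and open points were not well above background. The arrays overlap in every panel except that of Ptges probe A_51_P312327, and the WT points of Ptgds fall into a higher and a lower pair.

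**Figure D2:**
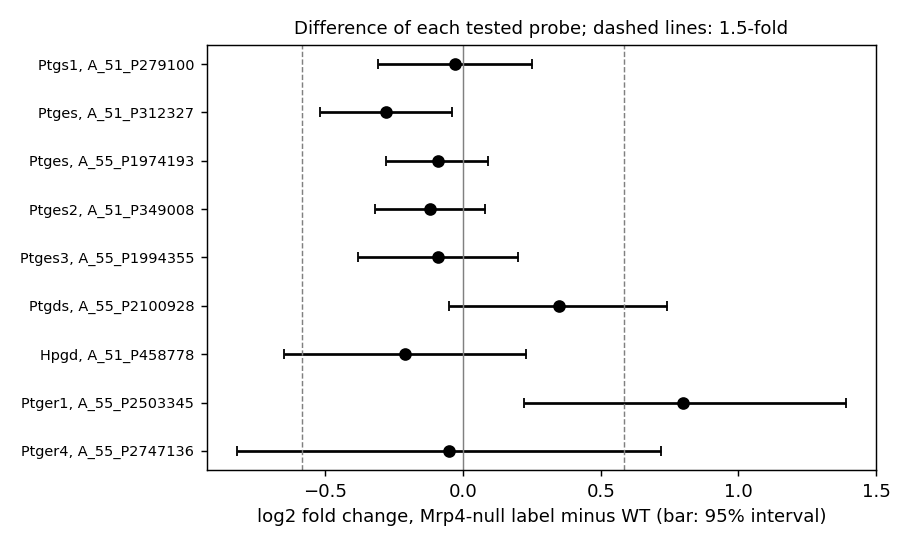
Log2 fold change of each tested probe (horizontal axis, arrays labelled Mrp4-null minus WT) with its 95% interval from limma; dashed lines mark a 1.5-fold difference. The interval of Ptger1 is drawn from 0.22 to 1.39 and crosses the 1.5-fold line. Its probe passed the filter only through the arrays labelled Mrp4-null, where it was brighter, so this interval supports no difference. The intervals of Ptgds, Hpgd and Ptger4 span 0 and reach past 1.5-fold on at least 1 side.

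Cyclooxygenase 1, the constitutive enzyme encoded by Ptgs1, averaged within 0.03 log2 units of the same signal in both genotypes. Its normalized log2 signal was 6.12, 6.10, 6.34 and 6.01 under the Mrp4-null label and 5.97, 6.38, 6.33 and 6.01 on the WT arrays. The groups overlapped over their whole range, with a log2 fold change of -0.03 (95% interval -0.31 to 0.25, adjusted p = 1 from limma) that lay between -0.10 and 0.04 when single arrays were left out. Cyclooxygenase 2, which many tissues make only after a stimulus, was represented by 1 Ptgs2 probe, well above background on 0 of 8 arrays. Its processed signal was 7.24, 5.28, 11.8 and 6.0 under the Mrp4-null label and 4.32, 10.2, 2.35 and 7.42 on the WT arrays. No difference in Ptgs2 was detectable at this signal.

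Microsomal prostaglandin E synthase 1, encoded by Ptges, is the synthase usually coupled to cyclooxygenase 2, and its 3 probes gave different pictures. Probe A_51_P312327 was lower on every array labelled Mrp4-null, at 5.01, 5.31, 5.29 and 5.12 on the normalized log2 scale, than on any WT array, at 5.34, 5.52, 5.64 and 5.35. The gap between the groups was narrow, since Mrp4-null 2 and WT 1 differed by less than the SD within either group. The mean was 5.18 ± 0.14 (SD, n = 4) under the Mrp4-null label and 5.46 ± 0.14 (SD, n = 4) in WT, and the log2 fold change was -0.28 (95% interval -0.52 to -0.04, adjusted p = 0.635 from limma). An exact two-sided permutation test gave p = 0.0286, the smallest that 4 against 4 arrays allow. It was the 1 probe of the 9 whose arrays did not overlap after normalization, where 4.79% of all tested probes did not overlap and 2.36% did so with the lower values under the Mrp4-null label. Before normalization its processed signals overlapped, at 34.2 to 46.9 under the Mrp4-null label and 33.2 to 50.9 in WT. With a shift of each array to its 75th percentile the log2 fold change was -0.23, with an unadjusted p of 0.179 from limma. With normexp background correction, whose added offset of 50 by itself shrinks the differences of dim probes, its log2 fold change was -0.11.

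The other tested Ptges probe, A_55_P1974193, had processed signals between 35200 and 53800. Its normalized log2 signal was 15.41, 15.39, 15.43 and 15.49 under the Mrp4-null label and 15.69, 15.44, 15.48 and 15.48 on the WT arrays. Only WT 1 stood apart, and the log2 fold change was -0.09 (95% interval -0.28 to 0.09, adjusted p = 1 from limma) and -0.04 without WT 1. Probe A_55_P1974189 was well above background on 2 arrays of each genotype, with processed signals between 11.3 and 21.4, and was not tested. All 3 probes carry the same accession, NM_022415, and since probes differ in how brightly they bind, their levels were not compared.

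The remaining prostaglandin E synthases differed less between the genotypes than a 1.5-fold change. Ptges2, the membrane-associated synthase, measured 11.41, 11.60, 11.53 and 11.33 under the Mrp4-null label and 11.66, 11.54, 11.65 and 11.49 in WT, as normalized log2 signal. The WT mean was higher, but the ranges overlapped (log2 fold change -0.12, 95% interval -0.32 to 0.08, adjusted p = 1 from limma), and without Mrp4-null 4 the difference was -0.07. Ptges3, the cytosolic synthase that is also the Hsp90 co-chaperone p23, measured 13.58, 13.34, 13.31 and 13.59 under the Mrp4-null label and 13.26, 13.67, 13.49 and 13.74 in WT. The lowest of the 8 values and the highest were both WT, and the log2 fold change was -0.09 (95% interval -0.38 to 0.20, adjusted p = 1 from limma). It was -0.18 without WT 1, -0.02 without WT 4 and -0.01 without WT 3 and WT 4.

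Ptgds encodes a lipocalin that both makes prostaglandin D2 and carries small lipophilic molecules, and it is known as an abundant transcript of the brain coverings and the eye. Its probe was spotted 10 times on each array, and the spots of an array differed by an SD of 0.020 to 0.037 on the log2 scale, which measures the array and not the spread between samples. The normalized log2 signal was 12.90, 12.87, 12.67 and 12.52 under the Mrp4-null label and 12.71, 12.69, 12.14 and 12.05 on the WT arrays. WT 1 and WT 2 lay within the range of the other genotype, and WT 3 and WT 4 lay below it. The means were 12.74 ± 0.18 (SD, n = 4) under the Mrp4-null label and 12.40 ± 0.35 (SD, n = 4) in WT. The log2 fold change of 0.35 (standard error 0.18, 95% interval -0.05 to 0.74) did not pass the threshold, with an adjusted p of 0.88 from limma and p = 0.171 in the exact two-sided permutation test. The LPE test gave Ptgds a difference of 0.36, under 1.5-fold, with an unadjusted p of 0.0182 and an adjusted p of 1. The size of the limma difference was above that of 93.8% of all tested probes.

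WT 3 and WT 4, the arrays with the least Ptgds signal, were also those without Xist above background. Without these 2 arrays the log2 fold change of Ptgds was 0.04 (standard error 0.14, adjusted p = 1 from limma), and it was 0.26 without WT 3 alone and 0.23 without WT 4 alone. Leaving out the 2 lowest values had to reduce the difference, so this refit tests no reason for it. WT 3 and WT 4 were also the dimmest WT arrays. Their 75th percentile of processed signal was 513.8 and 565.6, against 699.8 on WT 1 and 785.6 on WT 2. On Mrp4-null 2, where Ptgds was high, it was 497. Markers of the pigment epithelium, a tissue known to express Ptgds, had a mean normalized log2 signal of 7.33 on WT 3 and 7.30 on WT 4, against 7.72 and 7.81 on WT 1 and WT 2. On the arrays labelled Mrp4-null this mean ranged from 7.35 to 7.73, so the groups overlapped. All 8 of the pigment epithelium markers that passed the filter were well above background on every array, and 0 were called changed. The list of stromal and meningeal markers ranged from 6.98 to 7.12 under the Mrp4-null label and from 6.96 to 7.02 in WT, with its 6 tested genes above background on every array. The part of the sex-linked RNA and of these cell types in the Ptgds values was not tested. In bulk tissue, fewer cells of a type and less RNA per cell cannot be told apart.

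The genes whose signal followed that of Ptgds most closely over the 8 arrays, among 16087 other genes, were Epha1 (Pearson r = 0.957), Pick1 (0.955), Teddm2 (0.955), Slc13a3 (0.954) and Gm8096 (0.94). All 5 averaged higher under the Mrp4-null label, by 0.15 to 0.34 on the log2 scale, and 0 of them were called changed. The 8 points share 1 slide and the sex-linked split described above, so these values only describe the arrays.

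**Figure D3:**
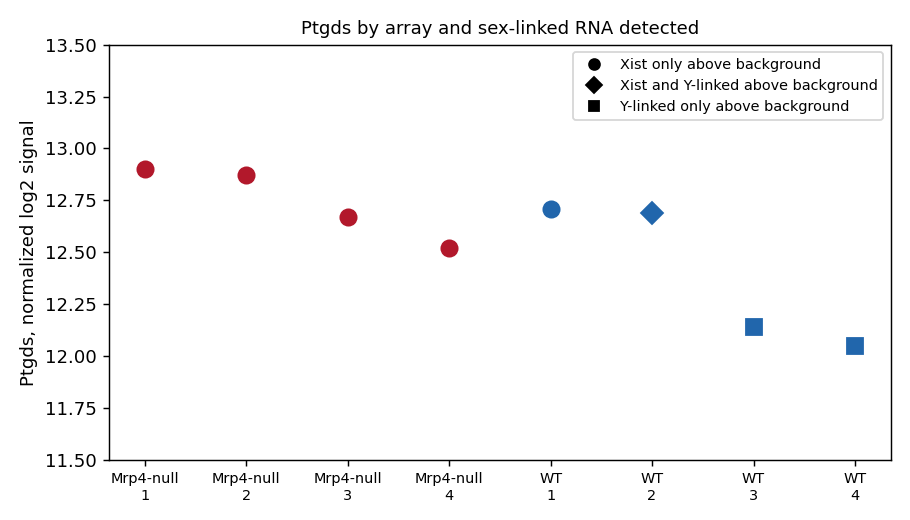
Normalized log2 signal of Ptgds on each array (red, labelled Mrp4-null; blue, WT); circles had only Xist above background, the diamond Xist and Y-linked probes, and squares only Y-linked probes. The squares, WT 3 and WT 4, are the lowest points at 12.14 and 12.05, and the other 6 arrays lie between 12.52 and 12.90.

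Hpgd encodes 15-hydroxyprostaglandin dehydrogenase, the enzyme that starts prostaglandin breakdown. Its normalized log2 signal was 8.32, 7.62, 8.02 and 8.43 under the Mrp4-null label and 8.24, 8.59, 8.00 and 8.40 on the WT arrays. Mrp4-null 2 lay lowest and WT 2 highest, with the other values intermixed (log2 fold change -0.21, 95% interval -0.65 to 0.23, adjusted p = 1 from limma). The list mean of endothelium markers, a cell type that can express Hpgd, was 8.49 on Mrp4-null 2 against 8.91 to 8.94 on the other arrays of that label and 8.85 to 9.10 in WT. Over all 8 arrays, only Cdh5 (5.11) and Tek (4.54) of the 7 markers were themselves lowest on Mrp4-null 2, and the other 5 were not. Among the arrays of that label alone, Flt1 (12.75) and Pecam1 (6.65) were lowest there too, while Cldn5 and Kdr were not. All 7 of these markers were above background on every array, and their part in the Hpgd values was not tested. The log2 fold change of Hpgd was -0.05 without Mrp4-null 2, -0.12 without WT 2, -0.32 without Mrp4-null 4 and -0.32 without WT 3 and WT 4.

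Most receptor probes lay near the background of the array. The EP1 receptor gene Ptger1, whose product raises intracellular calcium, measured 3.93, 4.48, 4.22 and 4.09 under the Mrp4-null label and 3.10, 3.98, 2.76 and 3.67 in WT, as normalized log2 signal. The groups overlapped by 1 array, since WT 2 lay above Mrp4-null 1. The probe was well above background on 4 of 4 arrays labelled Mrp4-null but only on WT 2 among the WT arrays, so the WT mean of 3.38 ± 0.55 (SD, n = 4) rests mostly on signals that were not well above background. Against the mean of 4.18 ± 0.23 (SD, n = 4) under the Mrp4-null label this gave a log2 fold change of 0.80, or 1.74-fold (95% interval 1.16 to 2.62), with an adjusted p of 0.473 from limma. Since the probe passed the filter only through the genotype where it was brighter, these values describe it and support no difference. With normexp background correction, whose offset of 50 exceeds every Ptger1 signal, it was 0.07 on the log2 scale, without Mrp4-null 2 it was 0.56, and without WT 3 and WT 4 it was 0.60. Ptger1 and Hpgd lie on chromosome 8, which held 35 of the 105 genes with a called probe, and whether this bears on either was not tested.

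The EP4 receptor gene Ptger4, whose product raises cyclic AMP, was measured by probe A_55_P2747136 at 4.91, 4.35, 5.76 and 5.03 under the Mrp4-null label and at 5.09, 5.03, 4.39 and 5.74 in WT. Each genotype held 1 high and 1 low array, and the spread between arrays was wider than for 97.3% of all tested probes. The log2 fold change was -0.05 (95% interval -0.82 to 0.72, adjusted p = 1 from limma), an interval that leaves room for a difference past 1.5-fold in either direction. It moved with single arrays and was -0.30 without Mrp4-null 3 and -0.27 without WT 3, but 0.16 without Mrp4-null 2 and 0.18 without WT 4. Myeloid markers, from cells known to carry EP4, had a list mean of 8.59 on Mrp4-null 3, the array with the highest Ptger4 value, against 7.65 to 7.80 on the other arrays of that label. On WT 4, where Ptger4 was nearly as high, the list mean was 7.75, within the WT range of 7.75 to 7.87. A second Ptger4 probe, A_51_P207988, was well above background on 0 of 8 arrays, with processed signals of 2.69 to 3.04.

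The EP3 receptor gene Ptger3, whose product lowers cyclic AMP, had no tested probe. Probe A_51_P520718 was well above background on Mrp4-null 4, WT 2 and WT 4, with processed signals of 11.7, 3.08, 10.7 and 14.0 under the Mrp4-null label and 10.8, 16.2, 3.98 and 13.1 in WT. Probe A_55_P1975481 was well above background on 0 of 8 arrays, with signals of 2.97 to 12.5. The plot of probes near background shows that the genotypes overlapped for both Ptger3 probes and for Ptgs2.

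**Figure D4:**
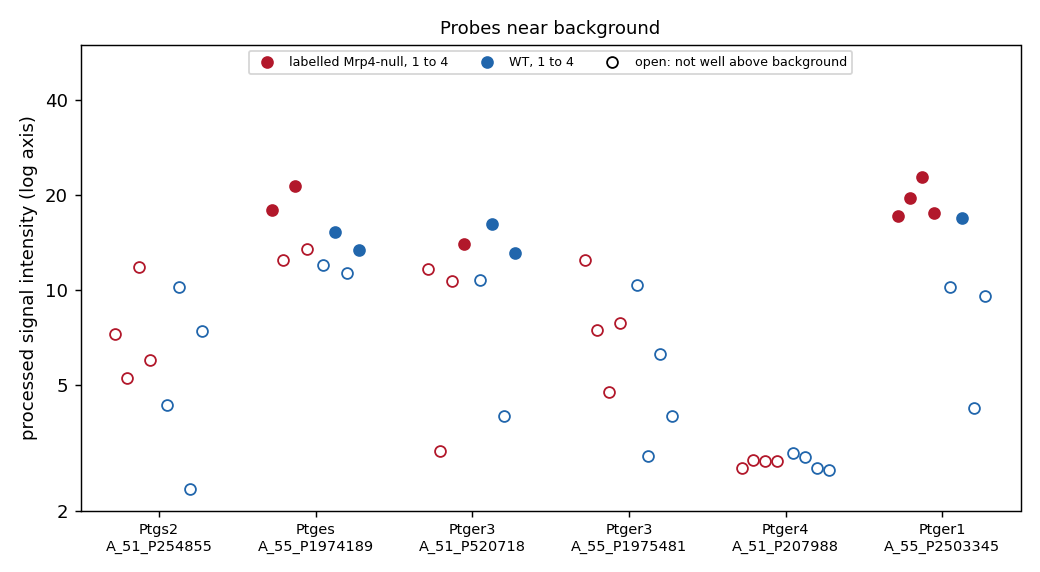
Processed signal intensity, before normalization and on a log axis, of the 5 probes that did not pass the filter and of the Ptger1 probe, with 1 point per array (red, labelled Mrp4-null; blue, WT); filled points were well above background. The signals of Ptgs2, of 1 Ptger3 probe and of 1 Ptger4 probe are open on all 8 arrays, and those of Ptger1 are filled on 4 red points and 1 blue point.

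The rest of the eicosanoid pathway was followed through 5 lists, of which only Abcc4, the gene checked above, was called changed among 40 tested genes. Of the genes that release arachidonate, 15 of 22 were tested and 0 were called. Their median log2 fold change was -0.01, and the cytosolic phospholipase Pla2g4a, the main enzyme of stimulated release, measured 6.81 ± 0.35 (SD, n = 4) under the Mrp4-null label and 6.95 ± 0.10 (SD, n = 4) in WT as normalized log2 signal. Its log2 fold change of -0.14 was 0.03 without Mrp4-null 2 and -0.24 without Mrp4-null 4. Single probes of Pla2g5 (log2 fold change -0.10), Pla2g7 (-0.18) and Pla2g16 (-0.12) had arrays that did not overlap, while other probes of the same genes overlapped. The other probe of Pla2g16, A_55_P1953809, measured 13.75 ± 0.11 (SD, n = 4) and 13.63 ± 0.08 (SD, n = 4), differing by a log2 fold change of 0.11, opposite in sign.

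Among the other prostanoid synthases, 8 of 10 genes were tested and 0 were called, with a median log2 fold change of 0.01. Cbr3, a carbonyl reductase, measured 9.26, 9.21, 9.11 and 9.17 under the Mrp4-null label and 9.52, 9.70, 9.46 and 9.57 in WT. Every array labelled Mrp4-null lay below every WT array, but the log2 fold change of -0.37 was under 1.5-fold and its adjusted p was 0.139 from limma. Prxl2b, a prostamide and prostaglandin F synthase, measured 13.31 ± 0.13 (SD, n = 4) and 13.43 ± 0.03 (SD, n = 4), differing by a log2 fold change of -0.12. The haematopoietic prostaglandin D synthase gene Hpgds was well above background on 0 of 8 arrays.

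All 7 genes for breakdown and transport were tested, with 1 called, Abcc4, and a median log2 fold change of 0.05. The prostaglandin uptake carrier Slco2a1 measured 4.23 ± 0.26 (SD, n = 4) under the Mrp4-null label and 4.49 ± 0.20 (SD, n = 4) in WT, and its log2 fold change was -0.26 (limma adjusted p = 0.945). One of its Mrp4-null signals was not well above background, so that it passed the filter through the WT arrays alone, and with normexp background correction its difference was -0.07. It was -0.15 without WT 1 and -0.16 without Mrp4-null 2. Zadh2, an enzyme of prostaglandin breakdown, had a log2 fold change of 0.05, which single arrays moved to between -0.03 and 0.16. Of 7 genes for other prostanoid receptors and a partner protein, 3 were tested and 0 were called. These were Ptgfrn, a partner protein of the prostaglandin F receptor, the prostacyclin receptor Ptgir and the thromboxane receptor Tbxa2r, each with a log2 fold change of -0.17. Leaving out single arrays moved Ptgfrn to between -0.24 and -0.09, Ptgir to between -0.31 and -0.07, and Tbxa2r to between -0.35 and -0.06. The EP2 receptor gene Ptger2 and the prostaglandin F receptor gene Ptgfr were well above background on 0 of 8 arrays.

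In the lipoxygenase branch, which turns arachidonic acid into leukotrienes, 7 of 14 genes were tested and 0 were called, with a median log2 fold change of 0.05. Alox5, the enzyme that starts leukotriene synthesis, measured 5.82, 5.66, 6.13 and 5.78 under the Mrp4-null label and 5.34, 5.28, 4.55 and 5.35 in WT. The groups did not overlap, and WT 3 lay furthest down. The log2 fold change of 0.72 passed 1.5-fold, but the adjusted p was 0.295 from limma, and the difference was 0.52 without WT 3, 0.49 in the LPE test and 0.32 with normexp background correction. Lta4h, the leukotriene A4 hydrolase, had a log2 fold change of -0.06, and -0.14 to 0.01 with single arrays left out. Among myeloid markers, which include cells that express Alox5, 8 of 9 genes were tested and 0 were called. Their list mean ranged from 7.65 to 8.59 under the Mrp4-null label and from 7.75 to 7.87 in WT, and 5 of the 8 averaged higher under the Mrp4-null label. The arrays of 1 Cd68 probe did not overlap (log2 fold change 0.56, adjusted p = 0.942 from limma), but its difference was 0.18 without Mrp4-null 3, the arrays of its other probe overlapped, and Cx3cr1 (-0.10), P2ry12 (-0.16) and Tmem119 (-0.12) averaged lower. Their part in the Alox5 difference was not tested.

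**Figure D5:**
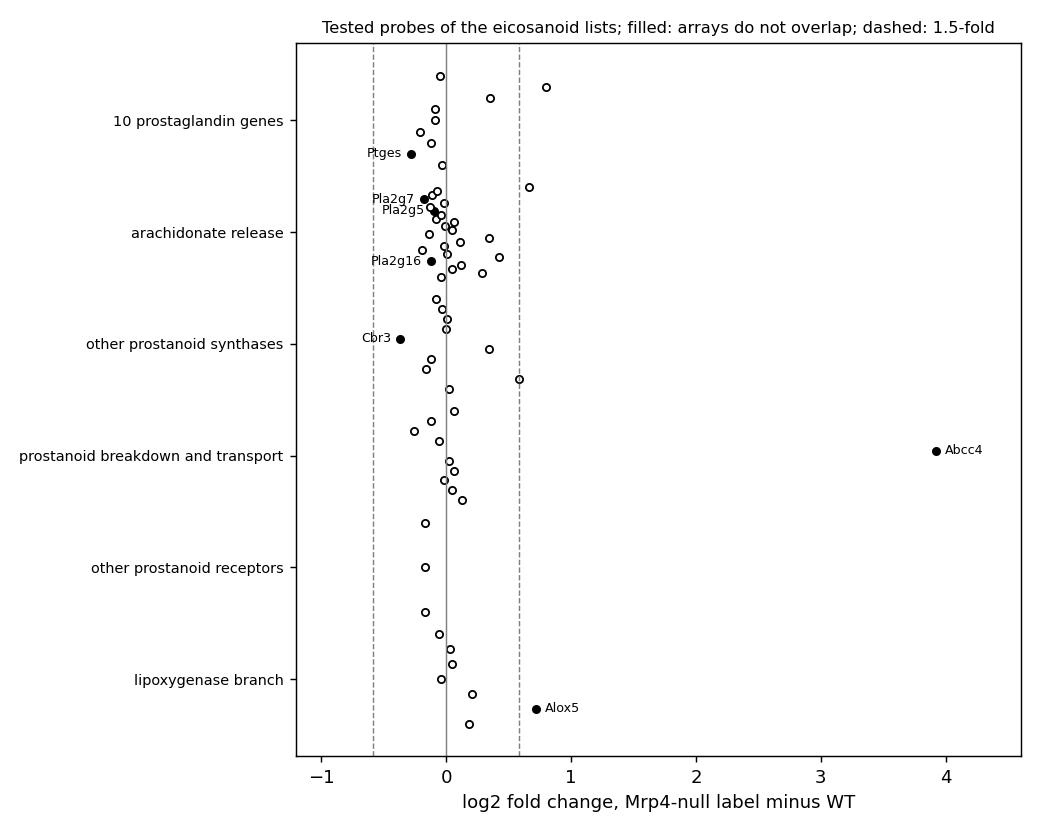
Log2 fold change (horizontal axis, arrays labelled Mrp4-null minus WT) of every tested probe of the prostaglandin genes and of 5 lists of eicosanoid genes, 1 row per list; filled points had arrays that did not overlap between the genotypes and dashed lines mark 1.5-fold. Abcc4 stands alone at 3.92, and most other points lie between the dashed lines.

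Other tissues that a dissected retina can carry were read through marker lists in which 0 genes were called by limma with all 8 arrays. Lens markers had a median log2 fold change of -1.40, with list means of 6.05 to 8.36 under the Mrp4-null label and 7.22 to 9.57 in WT, and 10 of the 11 were above background on every array. The list means of oligodendrocyte markers were 9.29 to 9.53 and 9.32 to 9.50, and those of blood and platelet markers 8.79 to 9.69 and 8.22 to 9.40, in the same order. Single probes of some genes on the marker lists had arrays that did not overlap. They were higher under the Mrp4-null label for Cd68, Col1a2 (log2 fold change 0.66), Grm6 (0.24) and Pf4. Pf4 was not well above background on 1 of the 8 arrays, WT 3, where it measured 2.38. It thus passed the filter only through the arrays labelled Mrp4-null, where it was brighter, and its values support no difference. The log2 fold change of Pf4 was 1.20 with all arrays, 0.68 without WT 3 and 0.25 with normexp background correction. Such probes were lower under the Mrp4-null label for Bfsp2 (-1.38), Crygc (-1.53), Cnp (-0.37) and Igf2 (-0.18). Of these, the LPE test called the lens genes Crygc (-1.85) and Bfsp2 (-1.33). The part of these tissues in the prostaglandin gene values was not tested.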

How the data were processed

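Retinal RNA of 4 Mrp4-null and 4 WT samples was measured on one-color Agilent arrays. The files deposited by the authors are the scanner output per array, in which Feature Extraction 11.0.1.1 had subtracted background from the processed signal intensity, and a table of values that equals the mean processed signal intensity per probe. Neither was normalized between arrays.

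Here, control spots and outlier spots were left out, log2 signals were averaged per probe, and probes were retained when every array of either genotype that measured them was well above background (at least 3 measured arrays there and 2 in the other). The 37085 retained of 56605 probes were quantile normalized. R 4.3.3 with limma 3.58.1 (lmFit and eBayes, genotype as the only term) gave p-values, which were adjusted (Benjamini-Hochberg) across the retained probes. The LPE test of the methods was written anew (bins of 0.01 of the values, spline with 10 degrees of freedom). Whether the study adjusted its p is not given in the sources used here. The fitting was tested on simulated data. For single values an exact two-sided permutation test of 4 against 4 arrays was used. Genes were named by accession through a RefSeq table of GRCm38.p6. The array header names an older build, so no probe coordinates are given, and probe sequences were not used here.

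The genes named were the 10 prostaglandin genes with all their probes, Abcc4, list genes that were called or whose arrays did not overlap, the gene with the highest mean signal of each pathway list (a rule for choosing names, not a ranking of expression), and the 5 genes most correlated with Ptgds. A gene of the marker lists that met this rule is not reported here. Pla2g4a, Slco2a1, Cx3cr1, P2ry12, Tmem119, Hpgds, Ptger2, Ptgfr, Ptgir and Tbxa2r were added after their values were seen. The genes, lists and tests were chosen with earlier results of these data known. Alternatives are given in the closing section.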

Additional observations from a re-analysis of the deposited data

Results flagged for a closer look

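In 46 sets of 4 arrays, 1 for each genotype and each tested prostaglandin probe or gene list, a single array was compared with the other 3 by its gap over the whole range (Dixon's ratio, at its 95% critical value). Chance flags about 1 in 20 such sets, and 2 of the 46 passed. The mean of the myeloid markers was 8.59 on Mrp4-null 3 against 7.65 to 7.80 on the other arrays of that label, a ratio of 0.84. The mean of the endothelial markers was 8.49 on Mrp4-null 2 against 8.91 to 8.94, a ratio of 0.933. Of the 7 endothelial markers, Cdh5, Tek, Flt1 and Pecam1 were lowest there among the arrays of that label. Esam was level with Mrp4-null 3 at 9.28, and Cldn5 and Kdr were not lowest there. Over all 8 arrays only Cdh5 and Tek were lowest on Mrp4-null 2. No tested prostaglandin probe passed the same screen, in which the WT arrays of Ptges probe A_55_P1974193 came nearest, with a ratio of 0.825 from unrounded values that lay just under the critical value. Among the arrays of that label, Mrp4-null 3 held the highest Ptger4 value and Mrp4-null 2 the lowest Hpgd value, and the part of these cells was not tested.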

How the results depend on the processing

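The prostaglandin genes were recomputed under a shift to the 75th percentile, normexp background correction with an offset of 50 (on the median signal, since the files hold no mean signal), 2 other filters on dim probes, outlier spots kept, the deposited table, the LPE test, eBayes with trend and robust options, a block on the sample number, the removal of single arrays, and, chosen after seeing the data, without WT 3 and WT 4. In all of these, 0 of the prostaglandin genes were called. Abcc4 was called in all 18 alternatives (log2 fold change 3.29 to 4.00), and no other gene of the pathway lists was. Refits of list genes were added after seeing the data, and among these Crygc, a lens gene, was called by the LPE test (-1.85), without WT 3 (-1.93) and without WT 3 and WT 4 (-2.02), and Bfsp2 by the LPE test (-1.33). The median log2 fold change of the prostaglandin genes was between -0.10 and -0.03 when single arrays were left out. In 161 refits of single prostaglandin probes, 0 were called, and 6 changed sign, 3 of Ptgs1 and 3 of Ptger4. Over all tested probes the count of 202 calls fell to between 117 and 188 when single arrays were left out (131 without WT 2, 129 without WT 3 and 117 without WT 4) and to 65 without WT 3 and WT 4. Same-numbered arrays of the genotypes did not deviate together as a set (r from -0.685 to 0.409), so the numbers do not pair the samples. Some differently numbered arrays did deviate together across the genotypes. Their r ranged from -0.565 (Mrp4-null 4 with WT 3) to 0.707 (Mrp4-null 2 with WT 3), so array-wide deviations were shared between genotypes. With the sample number as a block 71 probes were called, 0 of them for prostaglandin genes. No block for slide or scan was run, since all arrays shared them. Signal over background limits Ptgs2, Ptger1, Ptger3 and the dim probes of Ptges and Ptger4.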
